A study of Mus musculus with 2 samples.

Results

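The 10 CXC chemokine genes Cxcl1, Cxcl2, Ppbp, Pf4, Cxcl9, Cxcl10, Cxcl12, Cxcl13, Cxcl14 and Cxcl16 were taken by their symbols from 22886 genes listed in 2 mouse RNA sequencing libraries. The libraries were made from polyA RNA of cells sorted by FACS from Lewis lung carcinoma (LLC) grown under the skin of wild type C57BL/6 mice, LLC being a transplantable mouse lung tumor line. The mice had received an injection of vehicle (Veh) or of clodronate (Clod), a bisphosphonate used to deplete macrophages. The labels call the sorted cells aerobic without defining the gate, and they give neither the dose, the time after injection, the age of the mice, nor how many mice were pooled. One growth protocol names a blood progenitor line, EML, which conflicts with the tissue label. There was 1 library per condition, so the differences below have no replicates behind them, and p-values are not given.

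Chemokines are small secreted proteins that steer leukocytes through G protein-coupled receptors, and the CXC family is named for a single residue between its first pair of cysteines. Cxcl1, Cxcl2 and the processed form of Ppbp attract neutrophils through Cxcr2, Pf4 is stored in platelet granules and is also transcribed by some macrophages, and Cxcl9 and Cxcl10 attract T and NK cells through Cxcr3. Cxcl12 and Cxcl13 are mostly made by stromal cells in resting tissues, and Cxcl14 is a tissue chemokine. Cxcl16 is a membrane-bound ligand of Cxcr6 that also takes up oxidized lipids. In tumors, myeloid cells are a known source of the neutrophil-attracting and interferon-induced ligands.

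Values are RPKM, reads normalized for transcript length and library size, so levels of different genes can be compared per length. The steps between the lowest values implied about 13800000 reads in the vehicle and 11200000 reads in the clodronate library, from which reads per gene and 95% intervals were estimated. These intervals cover counting error only, not the difference between mice or sorts. The log2 ratio is that of clodronate RPKM + 1 over vehicle RPKM + 1, and the 10982 genes averaging at least 1 RPKM were kept, with a median log2 ratio of 0.019. In both libraries macrophage markers were high, with 8 of 8 kept and a summed level of 21235 RPKM with vehicle and 20730 RPKM with clodronate, and none of the 8 below 174 and 261 RPKM. The sum was led by Lyz2, with 10534 and 11189 RPKM. C1qc, a complement gene, had 3984 and 2043 RPKM, while C1qa had 1185 and 1563 RPKM and C1qb 3372 and 3384 RPKM. Mrc1, the mannose receptor, had 174 and 289 RPKM. The epithelial markers summed to 12.8 and 11.0 RPKM, with 4 of 7, among them Epcam, listed at 0 in both libraries. With bulk RNA, fewer cells of a type and less RNA per cell cannot be told apart.

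Of the 10 chemokines, 8 passed the filter on low values, and Cxcl12 and Cxcl13 did not. The 8 kept lay between 14.0 and 724 RPKM with vehicle and between 26.5 and 652 RPKM with clodronate. In the vehicle library the order from the highest level was Cxcl2, Cxcl1, Pf4, Cxcl16, Cxcl9, Cxcl10, Ppbp and Cxcl14, and the counting intervals of neighbors did not overlap. In the clodronate library it was Cxcl1, Pf4, Cxcl2, Cxcl16, Cxcl10, Ppbp, Cxcl9 and Cxcl14. There the intervals of Pf4 and Cxcl2 met (578 to 624 and 549 to 579 RPKM), and those of Ppbp and Cxcl9 overlapped (36.5 to 44.5 and 33.2 to 37.5 RPKM). Such an overlap does not settle the order of a pair, and no interval was computed for the ratio between its genes. As deposited, all 8 differed by less than 2-fold between the libraries.

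**Figure D1:**
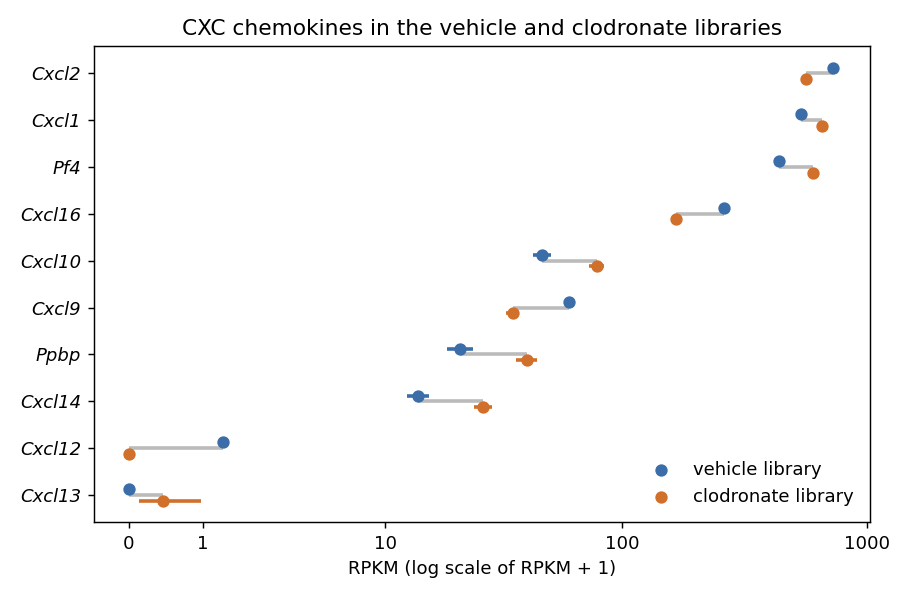
RPKM of the 10 CXC chemokines in the vehicle library (blue) and the clodronate library (orange), on a log scale of RPKM + 1, with 1 library per condition. Horizontal colored lines are 95% counting intervals, which Cxcl12 and values listed at 0 lack, and gray lines join the values of a gene. Cxcl2, Cxcl1 and Pf4 lie above 400 RPKM in both libraries, while Cxcl12 and Cxcl13 are each listed at 0 in one of them.

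At the 3-fold threshold, 0 of the 8 were higher and 0 were lower in the clodronate library, where 2.86% and 2.32% of all genes kept were. At 2-fold the counts were again 0 and 0, beside 6.95% and 6.77% of genes. A correction of the ratios for the GC content and length of transcripts put Ppbp at a log2 ratio of 1.32 and Cxcl10 at 1.09, so that 2 were at least 2-fold higher and 0 lower, beside 7% and 5.74% of genes. At 1.5-fold, a threshold chosen after the data were seen, 3 of the 8 were higher (Ppbp, Cxcl14 and Cxcl10) and 2 were lower (Cxcl9 and Cxcl16), while 16.6% of genes kept were higher and 16.3% lower. These counts are as deposited. Under the correction Cxcl1 (1.55-fold) and Pf4 (1.66-fold) also passed 1.5-fold higher, and the share of all genes was not computed there. All 8 averaged at least 10 RPKM. Among the 5913 genes above that level, 12% were higher and 11.7% lower by that fold. The median log2 ratio of the 8 was 0.36, with 5 above and 3 below 0 (Cxcl2, Cxcl9 and Cxcl16, of which Cxcl2 passes to 0.070 once GC content and transcript length are corrected for), and the middle 50% of the 5913 genes ran from -0.30 to 0.34. With 8 genes these are counts of a short list, and they set the list apart from other genes by no test.

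**Figure D2:**
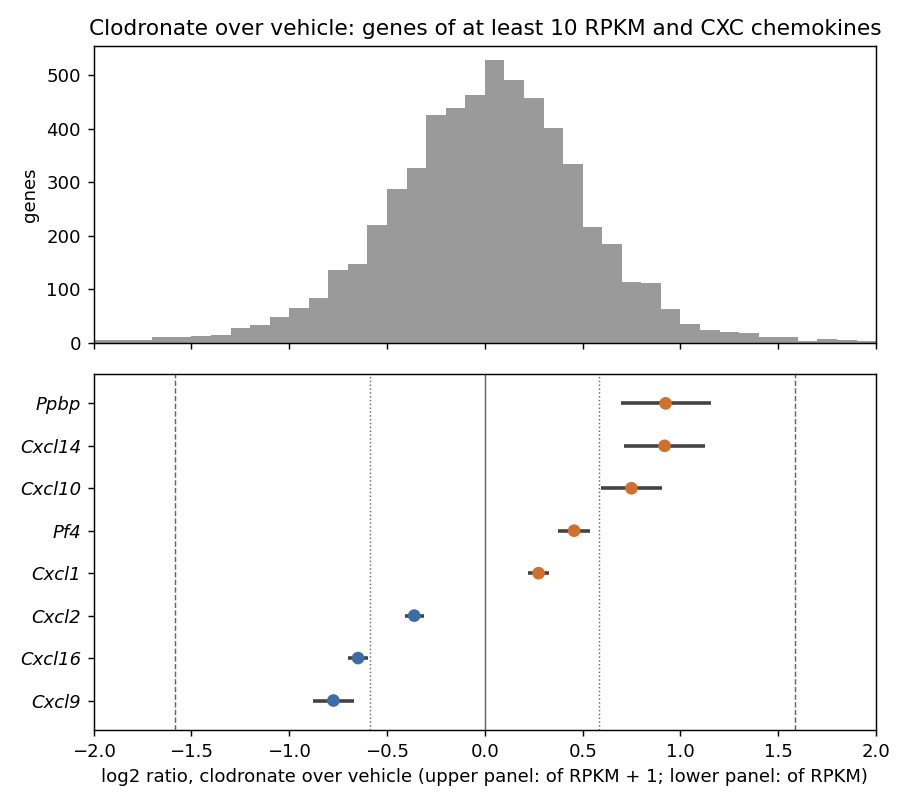
Upper panel, number of genes averaging at least 10 RPKM (5913 genes) by log2 ratio of RPKM + 1, clodronate over vehicle, of which those between -2 and 2 are drawn. Lower panel, log2 ratio of RPKM of the 8 CXC chemokines kept, with lines for 95% counting intervals, orange for higher and blue for lower in the clodronate library, and dotted and dashed lines at 1.5-fold and 3-fold. All 8 lie inside the 3-fold lines, and no interval reaches 0, although Cxcl2 changes sign to 0.070 under correction for GC content and length.

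Cxcl1, the mouse counterpart of the GRO chemokines, had 539 RPKM with vehicle (5587 reads) and 652 RPKM with clodronate (5515 reads). It was 1.21-fold higher with clodronate (95% counting interval 1.17 to 1.26). Its gene lies at chr5:91320270-91322141 in mm9, the build of the files. Cxcl2, its neighbor at chr5:91332924-91334964 and a ligand of the same receptor, had 724 RPKM with vehicle (9060 reads) and 564 RPKM with clodronate (5757 reads). Cxcl2 was thus 1.28-fold lower with clodronate (1.24 to 1.33), and which of the pair was the higher one changed between the libraries. The ratio of Cxcl1 to Cxcl2 was 0.744 in the vehicle and 1.16 in the clodronate library. The direction of Cxcl2 depended on the processing: its log2 ratio was -0.36 as deposited and 0.070 once ratios were corrected for GC content and transcript length, where Cxcl1 stood at 0.63.

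Ppbp, the precursor of a platelet-derived neutrophil attractant, had 21.3 RPKM with vehicle (258 reads) and 40.4 RPKM with clodronate (400 reads), 1.90-fold higher with clodronate (1.62 to 2.23). Its log2 ratio of 0.89 lay at percentile 95.3 of genes averaging at least 10 RPKM, the highest place among the 8. The summed level of Cxcl1, Cxcl2 and Ppbp was 1285 RPKM with vehicle and 1256 RPKM with clodronate, a ratio of 0.978. Under the correction the 3 genes all had log2 ratios above 0, with Ppbp at 1.32, and the ratio of the sums was 1.29.

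Among the remaining ligands of Cxcr2, Cxcl3 had 16.0 RPKM with vehicle (180 reads) and 39.5 RPKM with clodronate (362 reads), 2.46-fold higher (2.06 to 2.96). Cxcl5 had 0.10 and 0.490 RPKM, which is 2 and 8 reads. Cxcl2 and Cxcl3 share an identical stretch of 110 bases in their transcripts, and 7.59% of the 30-base words of Cxcl2 also occur in Cxcl3, so reads there could be split between them by the counting. Cxcl2 stood 45.2 times above Cxcl3 in the vehicle and 14.3 times above it in the clodronate library. Between Cxcl1 and Cxcl2 the longest shared stretch was 23 bases, and no 30-base word was shared.

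The proximal promoters of Cxcl1, Cxcl2 and Cxcl3 are shown because the letters GGGAATTTCCC stand in each of these neighboring genes, whose ratios were 1.21, 0.779 and 2.46. The sequences are the 250 bases before the RefSeq start on the plus strand, from 5′ to 3′, in GRCm38.p6 (chr5:90890995-90891244, chr5:90903649-90903898 and chr5:90785851-90786100). Capitals mark matches on either strand to the kappa-B core GGGANNTTC, the letters typical of NF-kB sites.
Cxcl1: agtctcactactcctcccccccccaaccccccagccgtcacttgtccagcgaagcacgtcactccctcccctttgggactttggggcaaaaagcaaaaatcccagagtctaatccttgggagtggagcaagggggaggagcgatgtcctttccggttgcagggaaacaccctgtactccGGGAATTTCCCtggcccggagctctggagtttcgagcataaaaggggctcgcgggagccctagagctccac
Cxcl2: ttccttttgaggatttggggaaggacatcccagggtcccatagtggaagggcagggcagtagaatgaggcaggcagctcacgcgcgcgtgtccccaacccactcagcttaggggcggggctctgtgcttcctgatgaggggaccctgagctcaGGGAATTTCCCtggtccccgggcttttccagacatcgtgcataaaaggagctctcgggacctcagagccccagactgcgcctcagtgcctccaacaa
Cxcl3: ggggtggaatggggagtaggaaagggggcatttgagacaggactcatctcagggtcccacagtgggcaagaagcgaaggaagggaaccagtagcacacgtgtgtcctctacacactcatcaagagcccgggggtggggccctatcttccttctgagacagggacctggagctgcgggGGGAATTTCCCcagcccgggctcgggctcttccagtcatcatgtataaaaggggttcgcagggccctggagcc
The overlapping forward and reverse matches began 71 bases before the start in Cxcl1, 97 in Cxcl2 and 73 in Cxcl3. Of 32851 RefSeq promoters cut to the same length, 3.23% hold a match to this core. A match is a description of the letters and not a measured binding site.

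NF-kB is the best known inducer of this group, and the 8 genes listed for that pathway were all kept, with 0 at least 3-fold higher, 0 at least 3-fold lower and a median log2 ratio of -0.051. Il1b, a cytokine that NF-kB induces, had 278 RPKM with vehicle (4423 reads) and 97.2 RPKM with clodronate (1262 reads), 2.86-fold lower (2.69 to 3.05). Tnf, another inducer and target, had 92.9 and 84.3 RPKM. Nfkbiz, a nuclear cofactor, had 283 and 213 RPKM, and Nfkbia, the inhibitor that NF-kB itself induces, had 277 and 313 RPKM. Zfp36, whose protein destabilizes chemokine mRNAs, had 677 and 835 RPKM. Of these genes Il1b stood farthest from 0, and the other 7 differed by less than 1.5-fold.

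The receptor of these ligands, Cxcr2, had 4.06 RPKM with vehicle (159 reads) and 2.69 RPKM with clodronate (86 reads), and Cxcr1 had 0.473 RPKM and was listed at 0. Of 7 neutrophil markers found, 6 were listed at 0 in both libraries, and S100a8 had 12.7 and 23.1 RPKM. Cxcr2 and S100a8 were thus far below Cxcl1 and Cxcl2, and since S100a9, the partner of S100a8, is among the genes listed at 0, those zeros are not read as absence. The part of S100a8-expressing cells in the chemokine levels was not tested. In the vehicle library Cxcl2 ranked within the top 0.599% and Cxcl1 within the top 0.778% of all genes, and in the clodronate library within the top 0.782% and 0.634%.

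Pf4, also called Cxcl4, had 437 RPKM with vehicle (2336 reads) and 600.2 RPKM with clodronate (2616 reads). It was 1.37-fold higher with clodronate (1.30 to 1.45), and it ranked within the top 0.931% and 0.734% of genes. Pf4 and Ppbp, the platelet granule pair, lie next to each other at chr5:91201460-91202409 and chr5:91197543-91199086 (mm9), and both were higher in the clodronate library. Pf4 stood 20.6 times above Ppbp with vehicle and 14.9 times above it with clodronate.

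Platelet and megakaryocyte markers were low beside them. The 8 genes summed to 2.47 RPKM with vehicle and 7.73 RPKM with clodronate, and Gp5, Gp6, Gp9 and Clec1b were listed at 0 in both. Gp1ba, a subunit of the von Willebrand factor receptor, had 1.90 and 0.387 RPKM, and Treml1, a platelet granule receptor, had 0.428 and 5.94 RPKM (6 and 68 reads). Gp1bb had 0.151 and 1.16 RPKM, and Itga2b was listed at 0 with vehicle and at 0.247 RPKM with clodronate (9 reads). Gp1ba thus had the lower value with clodronate, and Treml1, Gp1bb and Itga2b the higher one. The part of platelets in the levels of Pf4 and Ppbp was not tested.

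Cxcl9 and Cxcl10, ligands of one receptor that interferons induce, differed in opposite directions. Cxcl9 had 60.4 RPKM with vehicle (2236 reads) and 35.3 RPKM with clodronate (1067 reads), 1.71-fold lower with clodronate (1.59 to 1.84). Cxcl10 had 46.8 RPKM with vehicle (575 reads) and 78.6 RPKM with clodronate (789 reads), 1.68-fold higher (1.51 to 1.88). The log2 ratios were -0.76 and 0.74, at percentiles 7.04 and 92.4 of genes averaging at least 10 RPKM. The ratio of Cxcl10 to Cxcl9 was 0.774 in the vehicle and 2.22 in the clodronate library, 2.87 times as large. Their sum together with Cxcl11, the other ligand of Cxcr3, was 107 and 115 RPKM, a ratio of 1.07 as deposited and 1.31 after correction for GC content and length. Cxcl11 itself had 0.207 and 1.33 RPKM.

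Both genes lie on chromosome 5, Cxcl9 at chr5:92750356-92757105 and Cxcl10 within chr5:92760866-92843653 (mm9), an interval that the files give unchanged for Cxcl10, Cxcl11 and Art3. Since the library protocol in the labels does not mention strand, overlapping transcripts in that interval could share reads. Art3, an ADP-ribosyltransferase family gene, had 1.49 and 0.196 RPKM there, far below Cxcl10. The transcripts of Cxcl9 and Cxcl10 share no 30-base word and at most 11 bases in a row.

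The promoters of the pair are shown because both hold the ISRE and kappa-B letters, the best known inputs of these genes. They are the 250 bases before the RefSeq start in GRCm38.p6, both on the minus strand and written 5′ to 3′ along it (chr5:92328080-92328329 and chr5:92348890-92349139). Capitals mark matches on either strand to the core of the interferon-stimulated response element (ISRE), GAAANNGAA, to the kappa-B core, and in Cxcl10 to the AP-1 motif TGANTCA.
Cxcl9: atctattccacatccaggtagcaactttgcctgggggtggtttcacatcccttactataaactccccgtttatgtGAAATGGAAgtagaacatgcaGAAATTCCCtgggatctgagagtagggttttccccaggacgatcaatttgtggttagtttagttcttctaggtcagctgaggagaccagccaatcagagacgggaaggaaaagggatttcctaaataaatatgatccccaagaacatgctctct
Cxcl10: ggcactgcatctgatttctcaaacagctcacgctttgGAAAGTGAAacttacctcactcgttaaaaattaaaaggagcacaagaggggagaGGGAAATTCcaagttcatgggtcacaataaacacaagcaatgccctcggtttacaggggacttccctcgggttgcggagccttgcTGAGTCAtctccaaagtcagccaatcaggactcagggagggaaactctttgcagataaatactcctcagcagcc
The ISRE core began 175 bases before the start in Cxcl9 and 213 bases before it in Cxcl10, and the kappa-B core 154 and 159 bases before it. Of all promoters of this length, 7.13% hold the ISRE core and 6.75% the AP-1 motif. Among the promoters found for 9 of the 10 chemokines, that of Cxcl14 was the only other one with an ISRE core. A promoter of Cxcl16 was not used here.

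The inducers of the pair differed in unequal measure. Ifng, interferon-gamma itself, had 2.75 RPKM with vehicle (38 reads) and was listed at 0 in the clodronate library. It was the only gene of the 7 on the interferon-gamma list at least 3-fold lower, beside 2.32% of all genes kept. On that list 0 were at least 3-fold higher, beside 2.86%, and the median log2 ratio was -0.095. The count of lower genes rests on the ratio of RPKM + 1, whose size for a gene listed at 0 is set by the pseudocount. Jak2, a kinase of its receptor, had 19.9 and 11.8 RPKM. The receptor chains differed less, with 102 and 95.9 RPKM for Ifngr1 and 89.6 and 73.6 RPKM for Ifngr2. Irf1, a transcription factor that interferon-gamma induces, had 55.9 and 64.1 RPKM.

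On the type I interferon list, 7 of 8 genes were kept, with 1 at least 3-fold higher, 0 at least 3-fold lower and a median log2 ratio of 0.32. Irf7, an inducer and target of these interferons, had 20.1 RPKM with vehicle and 107 RPKM with clodronate, a log2 ratio of 2.36. Stat2 and Irf9, which act in the complex that binds the ISRE, had 20.4 and 32.4 RPKM and 23.6 and 30.3 RPKM. Ifnb1 was listed at 0 in both libraries. Of the 7 genes kept 6 were higher with clodronate, beside 51.6% of all genes kept, and Irf3, with 20.2 and 19.6 RPKM, was not.

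Cxcr3, the receptor of Cxcl9 and Cxcl10, had 0.465 RPKM with vehicle (10 reads) and 1.77 RPKM with clodronate (30 reads). T and NK cells carry this receptor, and their 8 markers summed to 11.1 and 9.43 RPKM, of which Cd4 held 10.3 and 7.72 RPKM. Cd3e, Cd3g and Ncr1 were listed at 0 in both libraries. Of the T and NK cell markers Cd4, which macrophages can also express, was thus the only one above 2 RPKM in either library.

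Cxcl16 had 261 RPKM with vehicle (8974 reads) and 167 RPKM with clodronate (4674 reads), 1.57-fold lower with clodronate (1.51 to 1.62). Its log2 ratio of -0.64 lay at percentile 9.89 of genes averaging at least 10 RPKM, and the gene is at chr11:70267735-70279701 (mm9), apart from the clusters on chromosome 5. Adam10 and Adam17, proteases that cut Cxcl16 from the membrane, had 59.2 and 55.4 RPKM and 42.0 and 53.5 RPKM. Both proteases differed by less than 1.5-fold. Cxcr6, its receptor on T cells, had 0.172 and 0.263 RPKM, or 4 and 5 reads, too few to order the libraries.

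The list of ligand processing and retention genes, to which both proteases belong, had 6 of 7 kept and a median log2 ratio of 0.021. On the scale of RPKM + 1, 0 were at least 3-fold higher or lower, beside 2.86% and 2.32% of all genes kept. Sdc4, a heparan sulfate proteoglycan that holds chemokines at the cell surface, had 63.3 and 69.7 RPKM. Mmp8, a collagenase that can trim CXC ligands, had 3.0 RPKM with vehicle (92 reads) and 0.909 RPKM with clodronate (23 reads). Without the pseudocount it was 3.30-fold lower (2.05 to 5.40). Dpp4, the peptidase that inactivates Cxcl10, was low, with 0.487 and 0.211 RPKM.

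Cxcl14, a tissue chemokine at chr13:56390005-56397912 (mm9), was the lowest of the 8, with 14.0 RPKM with vehicle (314 reads) and 26.5 RPKM with clodronate (484 reads). It was 1.89-fold higher with clodronate (1.64 to 2.18), at percentile 94.9. With 55.4% it had the highest GC content of the 8 transcripts, and its log2 ratio of 0.87 stayed between 0.83 and 0.91 under the alternatives. Fibroblasts are a known source of Cxcl14 and Cxcl12, and their 8 markers summed to 156 RPKM with vehicle and 75.4 RPKM with clodronate. Of the 6 fibroblast markers kept 5 were lower with clodronate, beside 48.4% of all genes kept, among them the matrix proteoglycan Dcn, with 77.3 and 28.4 RPKM. The exception, Col1a1, a collagen gene, had 2.32 and 5.40 RPKM. Among the 5, Col1a2 had 2.01 and 1.94 RPKM (ratio interval 0.743 to 1.24), so its direction was not set beyond counting error. Cxcl14 thus differed in the direction of Col1a1 and against the other markers kept, Col1a2 aside. Cxcl12 was listed above 0 in the library where the summed markers were higher, and the part of fibroblasts in Cxcl14 or Cxcl12 was not tested.

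Cxcl12, the stromal ligand that retains blood progenitors in the marrow, had 1.42 RPKM with vehicle and was listed at 0 with clodronate. Its transcripts, between 1878 and 5627 bases, would give 33 to 106 reads in the vehicle library. The gene is at chr6:117118552-117131386 (mm9). Its receptor Cxcr4 was the highest of the 9 receptors and scavengers, with 459 RPKM with vehicle (10146 reads) and 307 RPKM with clodronate (5525 reads), a ratio of 0.667. Ackr3, which scavenges Cxcl12, had 1.35 and 7.03 RPKM. On the scale of RPKM + 1 it was the only one of the 4 receptors kept at least 3-fold higher, with 0 at least 3-fold lower. Of all genes kept, 2.86% were higher and 2.32% lower by that fold. Without the pseudocount Cxcr3 was 3.81-fold higher.

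Cxcl13, which draws B cells into follicles, was listed at 0 with vehicle and reached 0.371 RPKM with clodronate, or 4 reads (95% counting interval 0.102 to 0.960 RPKM). The gene is at chr5:96385957-96390087 (mm9), beyond the clusters above. Its receptor Cxcr5 had 0.602 RPKM with vehicle (20 reads) and was listed at 0 with clodronate. The 5 B cell markers found summed to 2.99 and 1.74 RPKM, with Pax5 listed at 0 in both. A value of 0 in these files is no measured absence, since 276 genes were listed at 0 in the vehicle and at 1 RPKM or more in the clodronate library, and 169 the other way round. No fold is given for Cxcl12, Cxcl13 or Ifng.

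**Figure D3:**
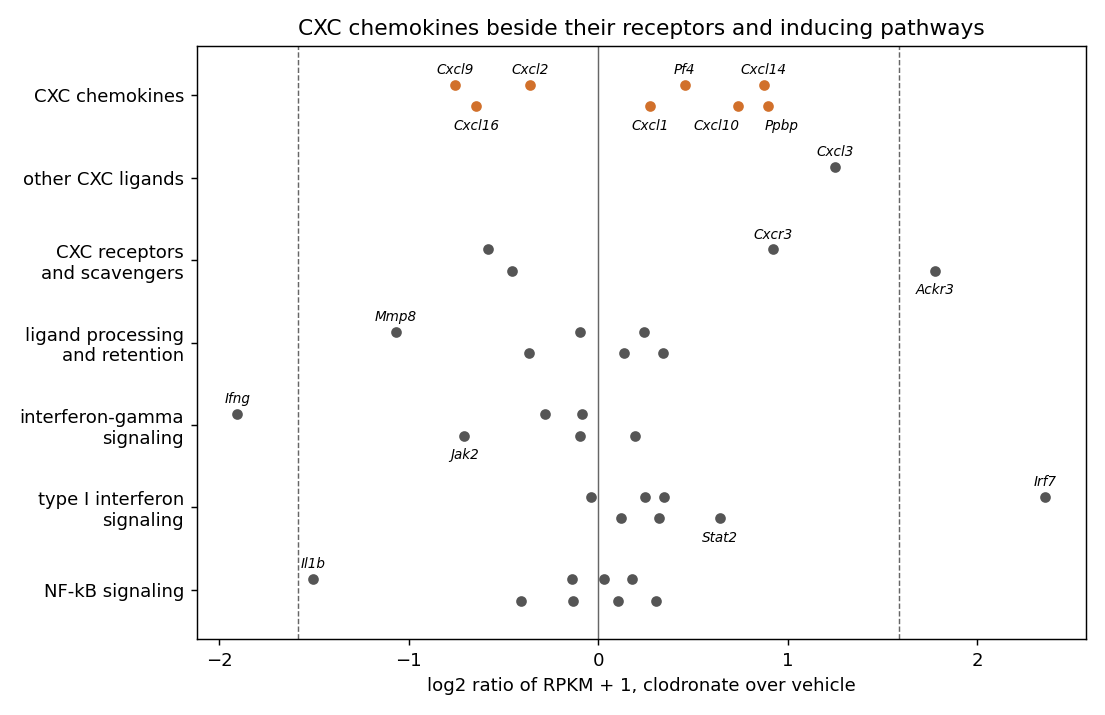
Log2 ratio of RPKM + 1, clodronate over vehicle, of the 8 CXC chemokines kept (orange) and of genes kept on 6 pathway lists (gray), each point 1 gene, shifted up or down only for legibility. Dashed lines mark 3-fold, and the pathway genes drawn past 1.5-fold are named. Irf7, Ackr3 and Ifng lie outside the lines, and no chemokine does.

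The chemokines of chromosome 5 lie in 2 groups, with Cxcl13 apart from both. In the first cluster, which runs over 146.6 kb from Cxcl5 to Cxcl2, Ppbp, Pf4, Cxcl3 and Cxcl1 were higher in the clodronate library and Cxcl2, at its end, was lower, except under the correction for GC content and length, which put it at a log2 ratio of 0.070. Cxcl15, between Cxcl3 and Cxcl1, was listed at 0 in both libraries. Levels within the cluster ran from 0.10 RPKM for Cxcl5 to 724 RPKM for Cxcl2 in the vehicle library. In the second group, Cxcl9 was lower and Cxcl10 and Cxcl11 had the higher value with clodronate.

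**Figure D4:**
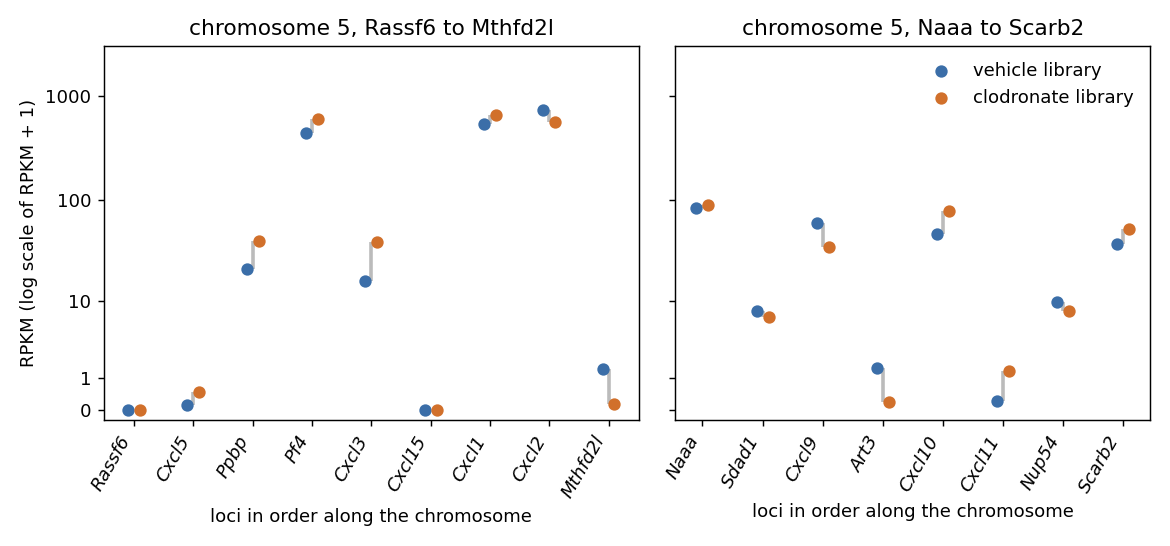
RPKM on a log scale of RPKM + 1 in the vehicle (blue) and clodronate (orange) libraries for the loci of the 2 CXC clusters on chromosome 5 and the genes beside them, in order along the chromosome and not to distance. As deposited, without the correction that changes the sign of Cxcl2, Cxcl2 and Cxcl9 have the lower value in the clodronate library, and Ppbp, Pf4, Cxcl3, Cxcl1, Cxcl10 and Cxcl11 the higher one.

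The summed level of the family depended on the same correction. As deposited, the 10 chemokines summed to 2106 RPKM with vehicle and 2164 RPKM with clodronate, a ratio of 1.03, and all 15 CXC ligands listed summed to 2122 and 2205 RPKM, a ratio of 1.04. Once the ratios were corrected for GC content and length, these became 1.29 and 1.30. Cxcl2 held 34.1% of the 15 in the vehicle and 25.6% in the clodronate library (27.5% after the correction), while Cxcl1 held 25.4% and 29.6% and Pf4 20.6% and 27.2%. The share of Cxcl16 was 12.3% and 7.55%. Together Cxcl2, Cxcl1, Pf4 and Cxcl16 held 92.4% and 89.9%, so each library's sum rested on 4 genes. Cxcl2 led with vehicle and Cxcl1 with clodronate. For these levels and sums the correction was put wholly on the clodronate values, so the vehicle order could not change under it. Cxcl1 still led with clodronate after it. Pf4 stood 1.06 times above Cxcl2 with clodronate as deposited, where their counting intervals met. It stood below Cxcl2 after the correction, at 727 against 760 RPKM.

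**Figure D5:**
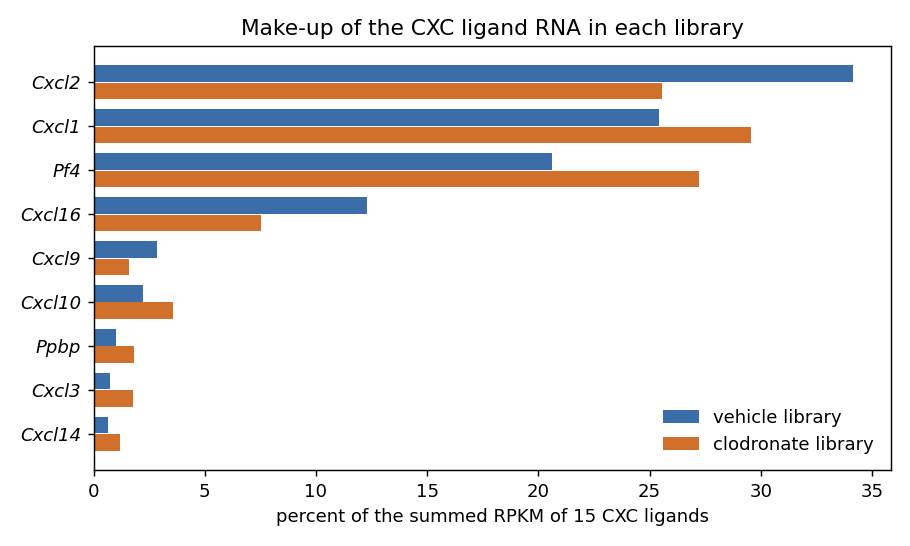
Share of the summed RPKM of 15 CXC ligands, in percent, held by each of the 9 ligands above a few RPKM in the vehicle (blue) and clodronate (orange) libraries, from axis 0. As deposited, Cxcl2 holds 34.1% with vehicle and 25.6% with clodronate (27.5% after correction for GC content and length), Cxcl16 holds 12.3% and 7.55%, and Cxcl1 and Pf4 hold larger shares with clodronate.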

How the data were processed

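The authors deposited 1 table of RPKM values per library, for 23170 gene loci with RefSeq accessions and symbols. The submitters' processing notes name CASAVA 1.8.2, TopHat2 2.0.9, Bowtie 0.12.9, Cufflinks 2.2.1, Cuffdiff and the build mm9, without parameters. The paper given with the series does not describe these libraries, and it was used for style only.

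RPKM were summed over rows of a symbol, which left 22886 genes, and each of the 10 chemokines was on 1 row. For 26 loci with a number in place of a symbol, the accession was used. RPKM are not counts, and with 1 library per condition no test was made. Genes averaging at least 1 RPKM were kept, ratios used a pseudocount of 1 RPKM, which understates the change of low genes, and a 3-fold ratio counted as higher or lower.

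Depth was recovered from the steps of low values. RPKM times transcript length less 200 bases came in steps of 1 read, and 78.6% and 78.1% of loci at 1 to 5 reads were within 5% of a whole number. The vehicle library was 1.23 times as deep by the steps and by the most frequent ratio between the libraries. Lengths came from GENCODE M21 transcripts (GRCm38) with the same accessions and may differ from those the authors used. Poisson intervals were used for levels and Clopper-Pearson intervals for ratios, at 95%. Promoters came from RefSeq (GRCm38.p6), found for 9 of the 10 chemokines, and their coordinates were never combined with those of mm9.

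All 10 chemokines are named, and any gene of 6 pathway and 9 marker lists (122 genes with the chemokines, of which Ly6g and Ighm were not found and Adgre1 is listed as Emr1) or any neighboring gene could be named. The members and lists were chosen with earlier results of these data known. Results for some genes of the lists are not reported or drawn here. The alternatives were a pseudocount of 0.1 RPKM, other minimum levels, centred or upper-quartile scaled ratios, the highest row of a symbol, other fold thresholds and a correction in which the median ratio of 10 bins of GC content, then of 10 bins of transcript length, was subtracted. The steps were tested on simulated data with Python 3.11.15, numpy 2.4.6, pandas 2.3.3, scipy 1.17.1 and matplotlib 3.10.9.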

Additional observations from a re-analysis of the deposited data

How the results depend on the processing

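No paired analysis was possible because a single library stood for each condition and no test was made, and leaving out a replicate could not be run for the same reason. Of 128 values under alternatives, 101 moved by less than their counting error or by less than 1.5 times for counts, or kept their medians within 0.1, and 27 moved further. For the sign of single chemokines only the correction for GC content and transcript length bears weight, since the other alternatives leave their ratios as they are or shift all genes alike. It gave 0.070 for Cxcl2, left the sign of the other 7 and moved the median of the chemokines from 0.36 to 0.68. The median was between 0.32 and 0.37 under the other alternatives. The number of genes at least 3-fold higher and lower was 314 and 255. It was 532 and 480 with a pseudocount of 0.1 RPKM, 127 and 101 for genes averaging at least 5 RPKM, and 763 and 744 at 2-fold. Settings chosen after seeing the data gave 83 and 62 for genes averaging at least 10 RPKM and 1828 and 1789 at 1.5-fold, where 3 and 2 of the chemokines passed, against 0 and 0 at 3-fold. Also chosen after seeing the data, 2-fold with the correction passed 759 and 622 genes and 2 and 0 chemokines, and the ratio of summed RPKM with the correction was 1.29 for the 10 chemokines, 1.30 for the 15 ligands, 1.29 for Cxcl1, Cxcl2 and Ppbp and 1.31 for Cxcl9, Cxcl10 and Cxcl11. The cause of these differences was not tested, other than that a lower threshold passes more genes and a higher minimum fewer. Depth limits Cxcl13 (4 reads), Cxcl5 (8 reads or fewer) and the receptors Cxcr3, Cxcr5 and Cxcr6, and counting intervals say nothing of the spread between mice.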

Other observations

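The genes that flank the CXC clusters on chromosome 5 had the following values. Mthfd2l, a mitochondrial folate enzyme gene next to Cxcl2, had 1.46 RPKM with vehicle (39 reads) and 0.131 RPKM with clodronate (3 reads), and Rassf6, beyond Cxcl5, was listed at 0 in both. Beside Cxcl9 and Cxcl10, Naaa had 83.4 and 88.7 RPKM, Sdad1 7.71 and 6.72 RPKM, Nup54 9.71 and 7.85 RPKM, and Scarb2, a lysosomal membrane protein gene, 37.7 and 52.7 RPKM. Dendritic cells can also make Cxcl9 and Cxcl16, and their 7 markers summed to 27.9 RPKM with vehicle and 32.6 RPKM with clodronate, with Itgax at 21.2 and 19.6 RPKM and Cd209a at 1.25 and 8.68 RPKM (22 and 125 reads). The 8 endothelial markers summed to 3.34 and 8.26 RPKM, with Cldn5, Emcn and Tek listed at 0 in both.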
